A study of Caenorhabditis elegans with 4 samples.

Results

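The genes described here encode subunits of the mitochondrial respiratory chain and of ATP synthase in the nematode Caenorhabditis elegans. They were taken as a named list of 46 genes and matched by WormBase gene identifier to the 20535 genes measured. All 46 were found. Of these, 34 lie in the nuclear genome and 12 on mitochondrial DNA, and all 46 reached 1 FPKM in at least 2 libraries and were tested. FPKM is the number of fragments mapped to a gene, scaled by the length of its transcript and by the size of the library, so levels can be set side by side between genes.

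RNA of whole young adult animals was sequenced from 2 strains, with 2 libraries each, which their titles number as biological replicates. The mutant strain, VL1080, carries the allele ww4 of mccc-1, a gene of leucine breakdown, together with the integrated transgene wwIs24, in which the acdh-1 promoter drives GFP and which the labels list with unc-119(ed3). The control strain, VL749, carries the same transgene without ww4. Animals of both strains ate the bacterium Comamonas aquatica DA1877 on nematode growth medium and were taken 70 h after hatching at 20 °C, at least 200 animals per library. In both strains they had been synchronized by holding them for 20 h in L1 arrest. The comparison addresses which transcripts differ in young adults that carry ww4.

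The respiratory chain passes electrons from NADH (complex I) and succinate (complex II) through ubiquinone, complex III and cytochrome c to oxygen at complex IV. Complexes I, III and IV pump protons out of the mitochondrial matrix, and ATP synthase (complex V) uses their return to make ATP. Complex II is encoded by nuclear genes alone, while the others combine nuclear subunits with subunits encoded on mitochondrial DNA, so their assembly draws on both genomes. In C. elegans, mutations in several of these genes, such as gas-1, isp-1 and mev-1, are known for their effects on respiration and lifespan.

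The FPKM of all genes summed to between 741399 and 786436 per library, lowest in mutant replicate 1. Small values fall on a grid set by single fragments, and by its spacing 1 FPKM of a 1 kb transcript rests on 11.4 to 11.8 fragments in each library. The mutated gene itself, mccc-1, was at 100.43 and 100.33 FPKM in the mutant libraries and at 104.19 and 105.26 FPKM in the control libraries (log2 fold change -0.06, adjusted p = 0.821 by limma). What ww4 alters in the gene is not stated in the labels, and its RNA level therefore does not check the genotype. Markers of sperm, germline, body wall muscle, pharynx, intestine, hypodermis and neurons were measured, and ceh-22 (pharynx), dpy-7 and rol-6 (hypodermis) stayed under 1 FPKM in every library. Of the markers tested for intestine (7), hypodermis (4) and neurons (8) none was called, with median log2 fold changes of 0.095, -0.143 and -0.002. At an unadjusted p under 0.05 by limma there was 1 among these, elt-2 of the intestine, which was higher (0.91, adjusted p = 0.0967).

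None of the 46 subunit genes passed the test for a difference between the strains. Over all 13091 tested genes 8.36% were called (limma on log2(FPKM + 1), Benjamini-Hochberg adjusted p under 0.05), with 1.06% higher and 7.3% lower in the mutant. At an unadjusted p under 0.05 the count for the subunits was also 0 of 46, against 21.6% of all tested genes, and the lowest adjusted p of any subunit was 0.242, for gas-1. The 2 genomes differed in how tightly this bounds a change. For the 34 nuclear genes the standard errors of the log2 fold change ran from 0.115 to 0.202, and no 95% interval reached below -0.63 or above 0.42, which corresponds to folds of 0.646 and 1.34 on the log2(FPKM + 1) scale. For the 12 mitochondrial genes the standard errors ran from 0.51 to 1.13, and the intervals reached from -3.66 to 2.79, so a change of several fold in either direction was not detectable in these libraries. Nothing in the labels says that the replicates were grown as separate cultures, so p-values reflect the spread of 2 libraries a strain, part of which may be technical.

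**Figure D1:**
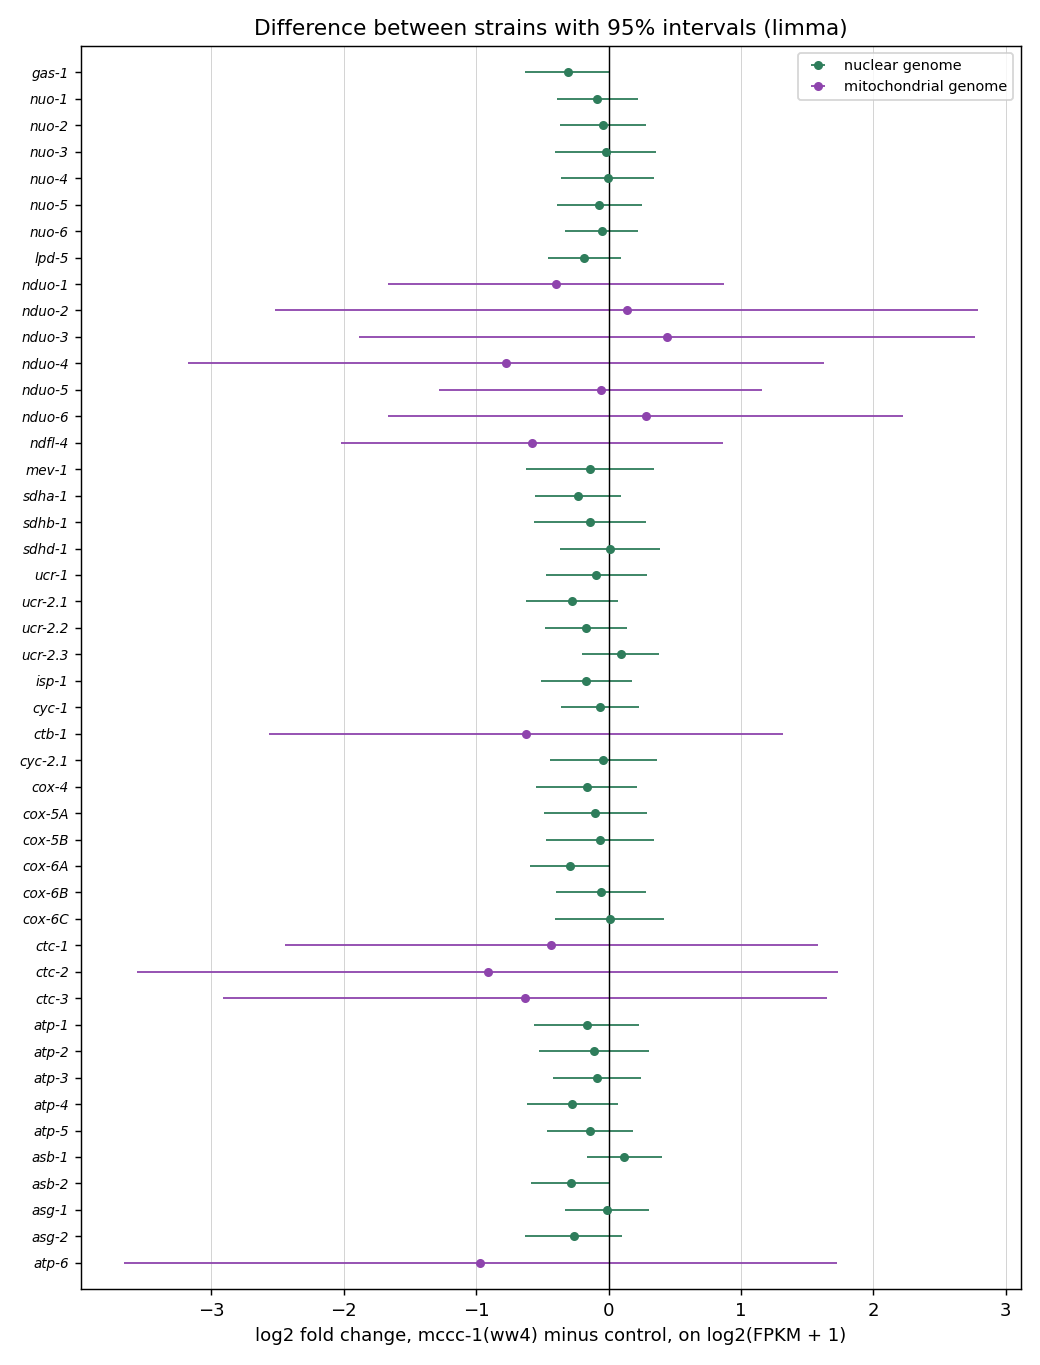
The log2 fold change of each subunit gene, mccc-1(ww4) minus control, on the log2(FPKM + 1) scale (x axis), with points for the estimate and bars for the 95% interval from limma (2 libraries a strain). All 46 intervals cover 0, and those of the 12 mitochondrial genes are much wider than those of the 34 nuclear genes.

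Among the nuclear genes of the 5 complexes the median level was highest for ATP synthase. The 9 nuclear genes of complex V had a median level of 346 FPKM over the 4 libraries, the 6 of complex IV 326 FPKM, the 8 of complex I 173 FPKM, the 6 of complex III 150 FPKM and the 4 of complex II 112 FPKM. The single nuclear cytochrome c gene of the list, cyc-2.1, stood above these medians at 657 FPKM. Levels within complex V ran down to 139 FPKM for asg-2. The highest nuclear gene was atp-2, the catalytic beta subunit of ATP synthase, and the lowest was ucr-2.2, a core protein of complex III. The order of the 34 nuclear genes was much alike in all libraries, with Pearson's r of log2 values from 0.989 to 0.994 between libraries of different strains and 0.991 within each strain (points are genes, not samples).

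Some nuclear values are uncertain, because exons of the member overlap those of another gene and the counting is not known to use strand. This holds on the opposite strand for gas-1, nuo-5, nuo-6, ucr-2.2, ucr-2.3, cyc-1 and asg-1, and on the same strand for nuo-1, nuo-3, cox-6B and atp-4.

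In complex I the nuclear members were gas-1, nuo-1, nuo-2 and nuo-5, which form part of its catalytic core, and the accessory subunits nuo-3, nuo-4, nuo-6 and lpd-5. gas-1 (WBGene00001520; chromosome X, 15586786 to 15590397, reverse strand) was at 65.99 and 78.03 FPKM in the mutant libraries and at 88.16 and 90.27 FPKM in the control libraries. The strains did not overlap, with both mutant libraries below both controls, but the difference did not pass the test (means 72.0 ± 8.51 and 89.2 ± 1.49 FPKM in mutant and control, SD, n = 2 each; log2 fold change -0.31, SE 0.13, 95% interval -0.63 to 0.01, adjusted p = 0.242 by limma). lpd-5, the counterpart of the human accessory subunit NDUFS4, was at 177.79 and 176.68 FPKM in the mutant libraries and at 197.68 and 205.21 FPKM in the control libraries. It too was lower in both mutant libraries without passing (log2 fold change -0.18, adjusted p = 0.43 by limma). The other 6 overlapped between strains, with log2 fold changes from -0.08 for nuo-1, the subunit that takes electrons from NADH, to -0.01 for nuo-4.

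In complex II, sdha-1, the flavoprotein that oxidizes succinate, was at 67.97 and 79.21 FPKM in the mutant libraries and at 82.29 and 90.88 FPKM in the control libraries. These did not overlap, and the difference did not pass (log2 fold change -0.23, adjusted p = 0.39 by limma). mev-1, the cytochrome b subunit in the membrane, was at 77.39 and 118.22 FPKM in the mutant libraries and at 102.76 and 108.23 FPKM in the control libraries, so that the mutant libraries lay on either side of the controls. It had the largest standard error of the nuclear genes, 0.20, on a log2 fold change of -0.14. The iron-sulfur subunit sdhb-1 and the membrane anchor sdhd-1 overlapped between strains, with log2 fold changes of -0.14 and 0.01.

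In complex III, isp-1, the Rieske iron-sulfur protein, was at 239.28 and 294.83 FPKM in the mutant libraries and at 297.73 and 299.21 FPKM in the control libraries. Mutant replicate 1 stood apart below the other 3 libraries, which lay close together (log2 fold change -0.17, adjusted p = 0.574 by limma). Cytochrome c1, encoded by cyc-1, was at 271.19 and 294.31 FPKM in the mutant libraries and at 292.69 and 297.79 FPKM in the control libraries. It and the core protein gene ucr-1 overlapped between strains. Cytochrome c itself, the carrier between complexes III and IV, is encoded by cyc-2.1, which was at 564.85 and 736.71 FPKM in the mutant libraries and at 664.28 and 661.45 FPKM in the control libraries. Its mutant libraries lay below and above both controls (log2 fold change -0.04, SE 0.17).

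In complex IV the nuclear genes encode the small subunits that surround the catalytic core. cox-6A was at 230.13 and 259.55 FPKM in the mutant libraries and at 300.49 and 298.19 FPKM in the control libraries. It was the only one of the 6 whose strains did not overlap, and it did not pass (means 245 ± 20.8 and 299 ± 1.63 FPKM in mutant and control, SD, n = 2 each; log2 fold change -0.29, SE 0.13, adjusted p = 0.248 by limma). cox-4, cox-5A, cox-5B, cox-6B and cox-6C had log2 fold changes from -0.17 for cox-4 to 0.01 for cox-6C. In each of these 5 genes mutant replicate 1 was the lowest library.

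In complex V, atp-1 and atp-2 encode the alpha and beta subunits of the catalytic head. atp-2 was at 1091.87 and 1317.33 FPKM in the mutant libraries and at 1236.19 and 1361.84 FPKM in the control libraries. atp-1 was at 966.19 and 1161.52 FPKM in the mutant libraries and at 1216.47 and 1160.63 FPKM in the control libraries. Both overlapped between strains, with log2 fold changes of -0.11 and -0.17. In the stalk that links the head to the membrane, atp-4, the counterpart of coupling factor 6, was at 283.16 and 344.8 FPKM in the mutant libraries and at 386.64 and 369.97 FPKM in the control libraries, without overlap (log2 fold change -0.275, adjusted p = 0.342 by limma). atp-5, the counterpart of subunit d, did not overlap either (-0.14), while atp-3, the oligomycin sensitivity protein, did (-0.09). The genes for subunit g, asg-1 and asg-2, overlapped between strains, with log2 fold changes of -0.01 and -0.26.

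**Figure D2:**
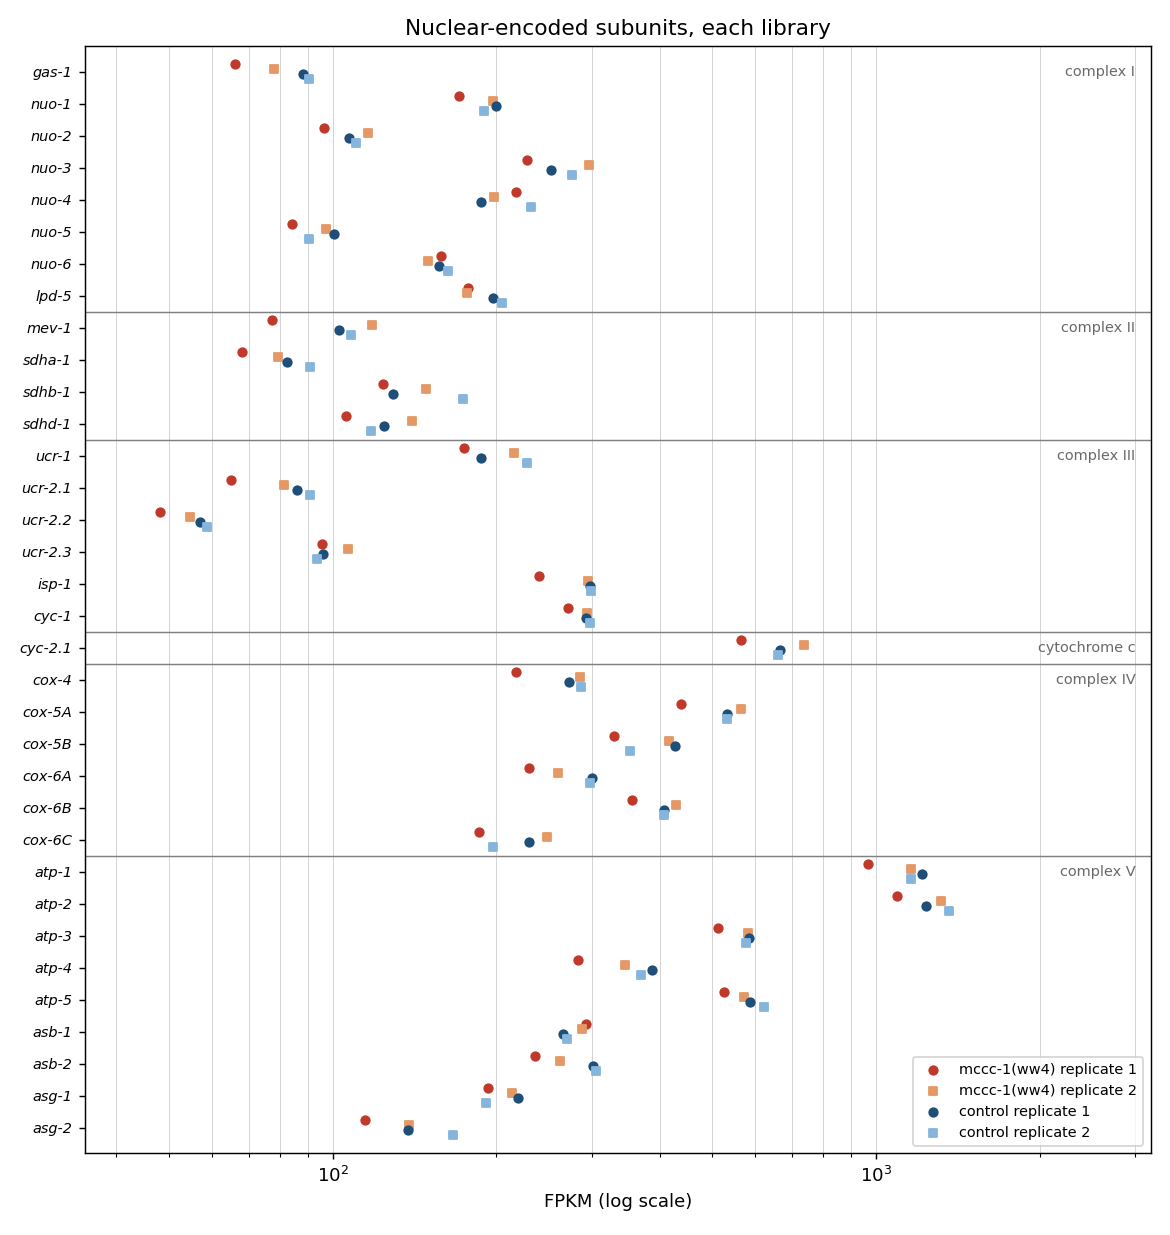
FPKM (x axis, log scale) of the 34 nuclear subunit genes by complex, with 1 point per library (2 mccc-1(ww4), 2 control). Mutant replicate 1 is the lowest of the 4 libraries in 28 genes, while mutant replicate 2 lies among or near the controls in most.

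Most nuclear genes were lowest in mutant replicate 1, while mutant replicate 2 lay near the controls. Of 34, 30 had a negative log2 fold change, against 44.4% of all tested genes, and their median was -0.10 against 0.05 for all tested genes. The 2 strains were fully separated for 11 of the 34, or 32.4%, against 52.1% of all tested genes. Of these 11, 10 were lower in the mutant (background 23.2%) and 1, asb-1, was higher (background 28.9%). Mutant replicate 1 was the lowest library in 28 of the 34 genes, against 22.8% of all tested genes. After scaling all libraries to the same FPKM sum it was lowest in 27 of 34, against 18.9%. Summed over the 34 genes, mutant replicates 1 and 2 stood at 9002 and 10658 FPKM, against 10509 and 10673 FPKM for control replicates 1 and 2. Mutant replicate 2 thus stood between the controls, and mutant replicate 1 alone below them. Without mutant replicate 1 the median log2 fold change of the nuclear genes was 0.01, with 16 of 34 negative, and none was called.

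Of 13 other lists of genes, 3 had their libraries in the same order: the TCA cycle, body wall muscle and pharynx. The summed level of 16 genes of the TCA cycle, which feeds electrons to complexes I and II, was 2495 and 2807 FPKM for mutant replicates 1 and 2, against 2737 and 2854 FPKM for control replicates 1 and 2. That of 9 body wall muscle markers was 3866 and 4774 FPKM for the mutant, against 4504 and 5237 FPKM for the control. Pharynx markers summed to 154.9 and 191.6 FPKM for the mutant, against 171.9 and 259.5 FPKM for the control. In all 3, as among the nuclear subunits, mutant replicate 1 was lowest and control replicate 2 highest. Among the nuclear subunits, mutant replicate 2 was nearly level with control replicate 2, at 10658 and 10673 FPKM. Mutant replicate 1 was also lowest in the sums of other subunits, ADP/ATP carriers and sperm markers. The 22 other subunits and related copies were at 4297.8 and 5092.6 FPKM for mutant replicates 1 and 2. Their control replicates 1 and 2 were at 4948.8 and 4910.5 FPKM, so mutant replicate 2 was highest there. None of the 9 muscle markers was called, and all 9 had negative log2 fold changes (median -0.17, range -0.32 to -0.04). Of the 6 pharynx markers 5 were tested and none was called, and all 5 had negative log2 fold changes (median -0.43, range -0.63 to -0.10), with 1, tnc-2, at an unadjusted p under 0.05 (adjusted p = 0.138 by limma). Their part in the level of the subunits was not tested. In RNA of whole animals, fewer cells of a type and less RNA per cell cannot be told apart.

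The level of transcripts of mitochondrial DNA differed severalfold between replicates of the same strain. C. elegans mitochondrial DNA encodes 7 members of complex I (nduo-1 to nduo-6 and ndfl-4), the cytochrome b of complex III (ctb-1), the 3 catalytic subunits of complex IV (ctc-1 to ctc-3) and 1 member of complex V (atp-6, part of the proton channel). All lie on the same strand. Summed over the 12 genes, mutant replicates 1 and 2 stood at 8536 and 1247 FPKM, against 2855 and 8613 FPKM for control replicates 1 and 2. Mutant replicate 1 and control replicate 2 were nearly level and far above the other pair, so the strains overlapped in every one of the 12 genes. The 12 genes made up 1.15% and 0.162% of all FPKM in the mutant replicates and 0.363% and 1.1% in the control replicates. Relative to the summed level of the 34 nuclear genes they stood at 0.948 and 0.117 in the mutant replicates and at 0.272 and 0.807 in the control replicates.

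The size and the sign of a difference between strains depended on which libraries were compared. Mutant replicate 1 held 2.99 times the mitochondrial sum of control replicate 1 and 0.991 times that of control replicate 2. Mutant replicate 2 held 0.437 and 0.145 times the same 2 controls. The median log2 fold change of the 12 genes was -0.505 with all libraries. It was -1.11 without control replicate 1 and -1.64 without mutant replicate 1, but 0.13 without control replicate 2 and 0.87 without mutant replicate 2. None of the 12 was called in any of these fits.

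ctc-3 (WBGene00010962; mitochondrial DNA, 5678 to 6449, forward strand), which encodes a subunit of the core of complex IV, had the highest level of the 12 in every library. It was at 2636.75 and 388.61 FPKM in the mutant libraries and at 772.06 and 3189.27 FPKM in the control libraries (log2 fold change -0.63, SE 0.95, adjusted p = 0.772 by limma). The largest subunit of that core, ctc-1 (WBGene00010964; 7827 to 9428), was at 1720.08 and 263.97 FPKM in the mutant libraries and at 564.25 and 1468.52 FPKM in the control libraries. The high and the low libraries were the same as for ctc-3. ctc-2 (WBGene00010965; 9649 to 10348), the subunit that receives electrons from cytochrome c, was at 882.32 and 72.25 FPKM in the mutant libraries and at 256.12 and 890.6 FPKM in the control libraries. It had one of the widest gaps within the mutant strain, 12.2-fold.

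Cytochrome b, encoded by ctb-1 (WBGene00000829; 4504 to 5621), was at 1531.11 and 240.68 FPKM in the mutant libraries and at 617.02 and 1418.33 FPKM in the control libraries. atp-6 (WBGene00010960; 2634 to 3235) was at 817.12 and 62.49 FPKM in the mutant libraries and at 241.97 and 817.63 FPKM in the control libraries. The replicates of atp-6 were 13.1-fold apart in the mutant and 3.38-fold in the control, against means of the strains of 440 ± 534 and 530 ± 407 FPKM (mutant and control, SD, n = 2 each), a difference smaller than either SD.

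The complex I members encoded on mitochondrial DNA spanned a wide range of levels. nduo-1 (1763 to 2635) was at 413.75 and 121.12 FPKM in the mutant libraries and at 234.03 and 373.34 FPKM in the control libraries. nduo-5 (11691 to 13272) was at 174.74 and 58.41 FPKM in the mutant libraries and at 76.63 and 145.39 FPKM in the control libraries. These had the smallest gaps between replicates of the 12 genes, 3.42-fold and 2.99-fold in the mutant and 1.6-fold and 1.9-fold in the control. nduo-4 was at 248.34 and 24.45 FPKM in the mutant libraries and at 78.72 and 232.22 FPKM in the control libraries. At the low end, nduo-2 was at 36.81 and 2.93 FPKM in the mutant libraries and at 4.01 and 23.57 FPKM in the control libraries. nduo-3 was at 63.33 and 9.35 FPKM in the mutant libraries and at 7.55 and 41.39 FPKM in the control libraries. nduo-6 and ndfl-4, which neighbour each other at the start of the map, were lowest, with nduo-6 at 6.68 and 1.44 FPKM in the mutant libraries and at 0.6 and 6.92 FPKM in the control libraries. ndfl-4 was at 5.05 and 0.83 FPKM in the mutant libraries and at 2.44 and 6.16 FPKM in the control libraries. Both are short genes at low levels, so their values rest on few fragments.

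**Figure D3:**
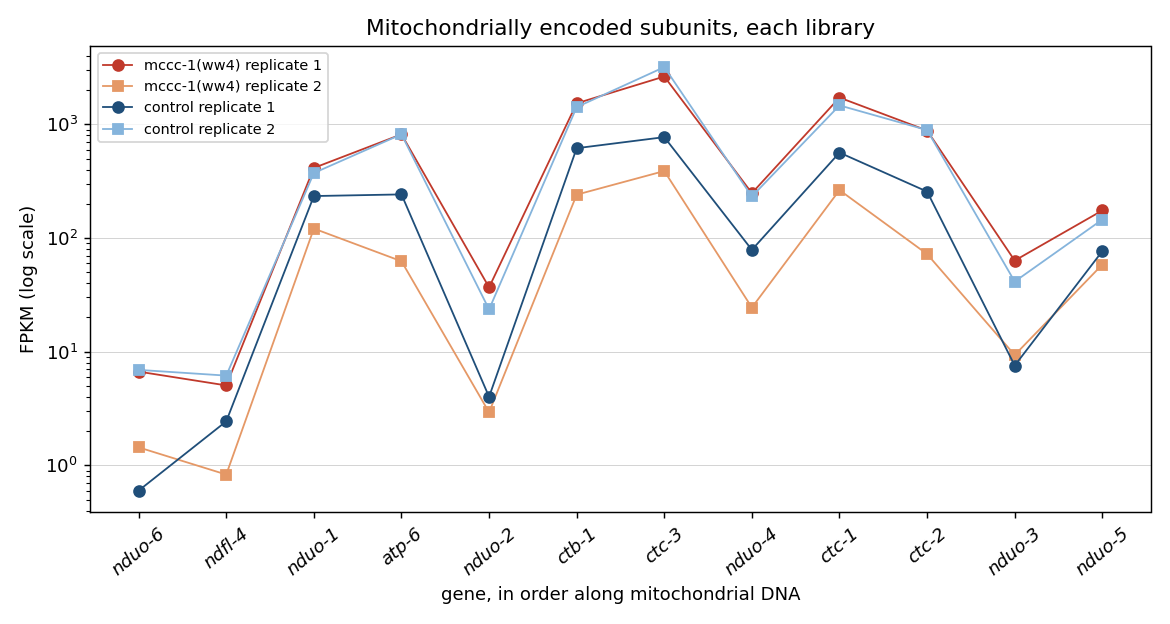
FPKM (y axis, log scale) of the 12 subunit genes of mitochondrial DNA, in order along it, with 1 line per library (2 mccc-1(ww4), 2 control). The lines of mutant replicate 1 and control replicate 2 run nearly together at the top, and mutant replicate 2 is the lowest library in 10 of the 12 genes.

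Although the total differed, the order of the 12 transcripts was nearly the same in all libraries. Pearson's r of log2 values across the 12 genes was 0.969 to 0.996 between strains and 0.968 and 0.985 within them (points are genes that share a library and neighbour each other, not samples). ctc-3, ctc-1 and ctb-1 were the top 3 in every library. Their shares of the mitochondrial total were 30.9% and 31.2% for ctc-3 in the mutant replicates, against 27% and 37% in the control replicates, and 20.2% and 21.2% for ctc-1 in the mutant, against 19.8% and 17% in the control. Some transcripts departed from this. The shares of nduo-1 and nduo-5 were 4.85% and 2.05% in mutant replicate 1 and 4.33% and 1.69% in control replicate 2, and higher where the total was low, at 9.72% and 4.69% in mutant replicate 2 and at 8.2% and 2.68% in control replicate 1. The shares of ctc-2 and atp-6 were lowest in mutant replicate 2, at 5.8% and 5.01%, against 8.47% to 10.3% in the other libraries.

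In 10 of the 12 mitochondrial genes, all but nduo-1 and nduo-5, control replicate 2 was at least 2-fold above control replicate 1 and mutant replicate 1 at least 2-fold above mutant replicate 2. Over all tested genes 79, or 0.603%, had gaps of that size and direction, and none of the 34 nuclear subunit genes did. That direction is the one seen in the mitochondrial genes, so the share is a description and no test of them. In either direction, replicates were at least 2-fold apart in 898 of 13091 tested genes in the control and 976 in the mutant. Among the 12 mitochondrial genes the counts were 10 in the control and 12 in the mutant. Of the 79, 69 were nuclear genes. Among those with a mean of at least 50 FPKM, a level chosen after the values were seen, 6 of 9 lay on mitochondrial DNA. The median gap between replicates, as an absolute log2 ratio of FPKM + 1, was 2.68 in the mutant and 1.65 in the control for the 12 mitochondrial genes. It was 0.26 in the mutant and 0.07 in the control for the 34 nuclear subunit genes, and 0.22 and 0.21 for all tested genes.

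The summed level of 12 nuclear genes for the upkeep and expression of mitochondrial DNA was 739 and 735 FPKM for mutant replicates 1 and 2, against 675 and 735 FPKM for control replicates 1 and 2. Of the 11 that were tested none was called (median log2 fold change 0.105, range -0.23 to 0.24; 0 of 11 also at an unadjusted p under 0.05). rpom-1, the mitochondrial RNA polymerase gene, was at 14.02 and 12.6 FPKM in the mutant libraries and at 14.5 and 17.07 FPKM in the control libraries. hmg-5, the counterpart of the DNA-packaging factor TFAM, was at 103.41 and 83.38 FPKM in the mutant libraries and at 76.1 and 81.09 FPKM in the control libraries. Replicates of both genes lay within 2-fold of each other. twnk-1, the mitochondrial helicase gene, was too low to be tested, at 0.45 and 0.2 FPKM in the mutant libraries and at 0.31 and 0.75 FPKM in the control libraries. Its replicates were more than 2-fold apart in both strains, in the direction of the mitochondrial transcripts. At these levels the values of twnk-1 rest on few fragments, and its exons overlap those of F46G11.4 on the other strand. The gaps of twnk-1 are therefore uncertain. The ribosomal RNAs of mitochondria were not analysed here.

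The list has several pairs of related gene copies, and in one the copies lay on opposite sides of the control. asb-1 and asb-2 both encode subunit b of ATP synthase, and asb-1 is known in C. elegans as the germline form. asb-1 (WBGene00000206) was at 293.11 and 288.19 FPKM in the mutant libraries and at 265.43 and 269.81 FPKM in the control libraries. It was the only member whose mutant libraries both lay above both controls. asb-2 (WBGene00000207) was at 235.53 and 262.29 FPKM in the mutant libraries and at 301.57 and 304.75 FPKM in the control libraries, with both mutant libraries below. Neither passed the test (log2 fold change 0.12 and -0.29, adjusted p = 0.635 and 0.252 by limma). The ratio of asb-1 to asb-2 within a library was 1.24 and 1.1 in the mutant and 0.88 and 0.885 in the control, so that the more abundant copy was asb-1 in the mutant libraries and asb-2 in the controls.

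Complexes I and II each have a related copy outside the list. nduf-2.2, a second copy of the core subunit encoded by gas-1, stood level at 89.06 and 85.72 FPKM in the mutant libraries and at 86.53 and 85.58 FPKM in the control libraries. The ratio of nduf-2.2 to gas-1 was 1.35 and 1.1 in the mutant and 0.982 and 0.948 in the control. sdha-2, a second copy of sdha-1, was at 89.81 and 86.23 FPKM in the mutant libraries and at 75.67 and 83.33 FPKM in the control libraries (log2 fold change 0.15, adjusted p = 0.561 by limma). Both mutant libraries lay above both controls for sdha-2 and below both for sdha-1, as for asb-1 and asb-2. The ratio of sdha-2 to sdha-1 was 1.32 and 1.09 in the mutant and 0.92 and 0.917 in the control. Over all 11 ratios of related copies computed, 10 did not overlap between strains and 1, asg-1 to asg-2, did, at 1.68 and 1.55 in the mutant and 1.6 and 1.15 in the control. Of single tested genes 52.1% did not overlap, and no such share was computed for ratios of genes. The ratio of mai-1 to mai-2 was separated only narrowly, at 0.0459 and 0.0481 in the mutant and 0.0488 and 0.13 in the control. The 11 share genes, and they are given as descriptions with no test. Of the 3 copies of core protein 2 of complex III, ucr-2.1 was at 64.98 and 81.31 FPKM in the mutant libraries and at 85.91 and 90.69 FPKM in the control libraries. ucr-2.2 was at 48.11 and 54.7 FPKM in the mutant libraries and at 56.99 and 58.76 FPKM in the control libraries. ucr-2.3 was at 95.54 and 106.75 FPKM in the mutant libraries and at 95.86 and 93.67 FPKM in the control libraries. The log2 fold changes were -0.28, -0.17 and 0.09, and none passed, although the strains did not overlap for ucr-2.1 and ucr-2.2.

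Some germ cell markers differed between the same libraries. Of 14 germline and oocyte markers 1, spn-4, was higher (background 1.06%) and none lower. Their summed level was 4247 and 4117 FPKM in the mutant libraries and 3501 and 2910 FPKM in the control libraries. Their median log2 fold change was 0.34 (range -0.12 to 0.68), with 10 of 14 positive (44.4% of all tested genes were negative). In 8 of 14 the strains did not overlap, all higher (background 28.9%). At an unadjusted p under 0.05 by limma 6 were higher (background 8.16%). These 6 were puf-5, oma-1, oma-2, cpg-1, cpg-2 and spn-4. The list did not move as a whole. glh-1, pgl-1, pgl-3, gld-1, htp-3 and him-3 overlapped between strains, with log2 fold changes from -0.12 for him-3 to 0.07 for pgl-3. Of 14 sperm markers 11 were lower (background 7.3%) and none higher, with a summed level of 602 and 896 FPKM in the mutant libraries and 2482 and 2422 FPKM in the control libraries. Their part in the ratios of gene copies was not tested.

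Of 22 further subunits and related copies 1 was called, lower in the mutant (background 7.3%). cyc-2.2 (WBGene00013854; chromosome V, 12611682 to 12612218, reverse strand), the second cytochrome c gene, was at 28.3 and 39.01 FPKM in the mutant libraries and at 102.03 and 109.08 FPKM in the control libraries. Both mutant libraries lay far below both controls, and the gene fell (means 33.7 ± 7.57 and 105.56 ± 4.99 FPKM in mutant and control, SD, n = 2 each; ratio 0.319; log2 fold change -1.64, SE 0.17, adjusted p = 0.00777 by limma). The main cytochrome c gene, cyc-2.1, stood far above it and did not pass, so that the ratio of cyc-2.2 to cyc-2.1 was 0.0501 and 0.053 in the mutant and 0.154 and 0.165 in the control. Reads shared by the 2 copies could have been divided between them by the quantification. The call of cyc-2.2 was lost at a minimum of 0.1 FPKM and without any minimum (adjusted p = 0.0695 and 0.107 by limma), where 4 genes in all were called, and lay between 2.71e-05 and 0.0449 under the other alternatives. It held without each of the 4 libraries in turn.

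Of the other 21 genes, 20 besides mai-1 had log2 fold changes from -0.17 to 0.15. mai-1, one of 2 genes for inhibitors of the ATPase activity of complex V, was at 13.57 and 19.14 FPKM in the mutant libraries and at 16.98 and 40.45 FPKM in the control libraries. Control replicate 2 stood apart above the other 3 libraries (log2 fold change -0.67, SE 0.39, adjusted p = 0.385 by limma, against 0.0358 without control replicate 1 and from 0.0565 to 0.96 under the other alternatives). Its exons overlap those of gpd-2 on the same strand, so its value is uncertain. The other inhibitor gene, mai-2, was at 295.38 and 398.17 FPKM in the mutant libraries and at 347.7 and 311.3 FPKM in the control libraries.

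The ADP/ATP carriers exchange the product of ATP synthase across the inner membrane. Of the 3 that were tested, 2 copies at low levels were called, both lower in the mutant (background 7.3%). ant-1.3 was at 1.97 and 3.04 FPKM in the mutant libraries and at 16.72 and 22.83 FPKM in the control libraries (ratio of means 0.127; log2 fold change -2.57, SE 0.27, adjusted p = 0.00723 by limma). ant-1.4 was at 0.55 and 1.9 FPKM in the mutant libraries and at 8.16 and 10.39 FPKM in the control libraries (ratio 0.132; log2 fold change -2.27, SE 0.35, adjusted p = 0.0155 by limma). ant-1.1, the most abundant carrier, stood far above them, at 1946.9 and 2361.05 FPKM in the mutant libraries and at 2465.14 and 2493.78 FPKM in the control libraries, without overlap and without passing (log2 fold change -0.21, adjusted p = 0.604 by limma). ant-1.2 was at 0.12 FPKM or below in all libraries and was not tested. The call of ant-1.3 was lost at a minimum of 0.1 FPKM and without any minimum (0.0695 and 0.106). That of ant-1.4 was lost under the same settings (0.0842 and 0.117), without control replicate 2 (0.0737) and without mutant replicate 1 (0.0827).

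The fall of cyc-2.2, ant-1.3 and ant-1.4 stood beside that of the sperm markers. The median log2 fold change of those 14 markers was -1.59, with a range of -2.21 to -0.84. The strains did not overlap in any of the 14, all lower in the mutant (background 23.2%). spe-9 and spe-38 reached 1 FPKM in the control libraries alone, so the filter fixed their separation in advance. The lists were chosen with earlier results of these data known, so this count is a description and no test. Mutant replicate 2 was above mutant replicate 1 in the sum of these markers, as it was in all of cyc-2.2, ant-1.3 and ant-1.4. It was also above in the sum of the 34 nuclear subunit genes. In the control, replicate 2 was below replicate 1 in the sperm sum, at 2422 and 2482 FPKM, but above it in cyc-2.2, ant-1.3 and ant-1.4. The part of sperm RNA in these 3 genes was not tested.

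**Figure D4:**
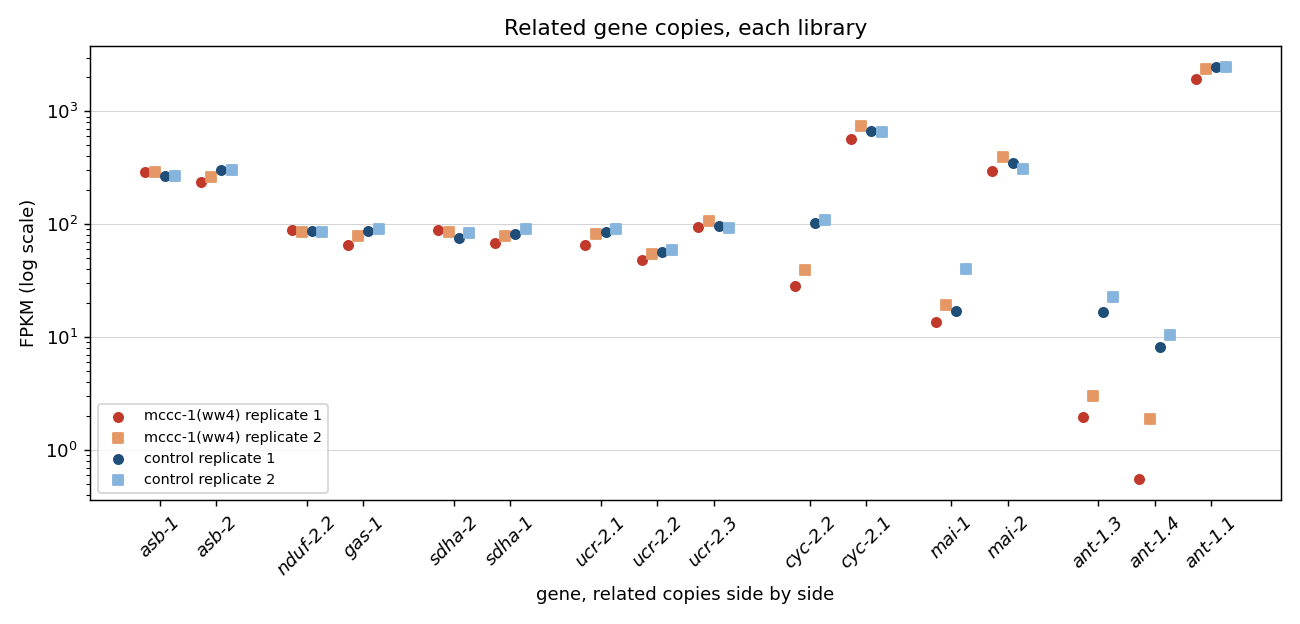
FPKM (y axis, log scale) of related gene copies, grouped by family, with 1 point per library (2 mccc-1(ww4) left, 2 control right). cyc-2.2, ant-1.3 and ant-1.4 lie lower in both mutant libraries, while the abundant copies cyc-2.1 and ant-1.1 differ far less.

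Genes that build the chain but are not part of it did not pass in either direction. All 13 tested assembly factors had positive log2 fold changes, with a median of 0.14, against 0.05 for all tested genes, and a range of 0.005 to 0.52, and in 6 of the 13 both mutant libraries lay above both controls (background 28.9%). The highest was cox-17, a copper chaperone for complex IV, at 10.79 and 13.23 FPKM in the mutant libraries and at 8.45 and 7.69 FPKM in the control libraries (adjusted p = 0.21 by limma). The ubiquinone synthesis genes had a median of 0.20, with 7 of 8 positive (44.4% of all tested genes were negative), and coq-5, a methyltransferase of that pathway, was at 58.97 and 58.3 FPKM in the mutant libraries and at 46.32 and 45.84 FPKM in the control libraries (log2 fold change 0.34, adjusted p = 0.162 by limma). cox-17 and coq-5 had unadjusted p-values under 0.05 by limma (0.0426 and 0.0276), the only ones in these 2 lists of 13 and 8 genes, against 8.16% of all tested genes that were higher at that threshold. clk-1, which acts late in ubiquinone synthesis, overlapped between strains (0.20, adjusted p = 0.645 by limma). In the TCA cycle none of 16 genes was called (median -0.01, range -0.32 to 0.24), with mdh-2, malate dehydrogenase, lowest (adjusted p = 0.329 by limma) and none at an unadjusted p under 0.05.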

How the data were processed

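Per the file headers, the authors deposited FPKM per gene, 1 file per library, and the tools named per the submitters' processing notes are Bowtie2 and RSEM. Not given in the sources used here: versions, genome build, annotation, strandedness and how RNA was selected before sequencing. RSEM divides shared reads among similar genes by a model. Of the 34 nuclear members, 7 have exons that overlap a gene on the other strand and 4 on the same strand in the WBcel235 annotation, which also gave the positions printed. Mitochondrial names were matched to identifiers by position in RefSeq's table of that assembly.

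The test, limma 3.58.1 run in R 4.3.3 on log2(FPKM + 1), took genes that reached 1 FPKM in 2 or more libraries (group only, variance trend, 2 residual and 4.65 prior degrees of freedom), mutant minus control, with Benjamini-Hochberg adjustment over 13091 genes. Folds on this scale understate the change of low genes. Library depth was read from the spacing of values under 0.6 FPKM in genes with a single transcript of 950 to 1050 nt. The test was tested on simulated data, drawn independently for each gene and library. These hold no shifts shared by genes of a library, as seen in the mitochondrial genes. The members, lists and filter were chosen with earlier results of these data known. By rule all members were named, and of the context lists the called genes and the related copies. spn-4, ceh-22, dpy-7, rol-6, rpom-1, hmg-5, cox-17, coq-5, clk-1, mdh-2, elt-2, tnc-2 and twnk-1 were named after their values were seen. So were the other germline and oocyte markers named singly, and spe-9 and spe-38. Alternatives were another pseudocount, other filters, other scalings, a robust variance model, a replicate block, and leaving out each library. No sequences are shown.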

Additional observations from a re-analysis of the deposited data

How the results depend on the processing

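The count of 0 subunit genes called held under all 15 alternatives, for nuclear and mitochondrial genes alike. The count of 0 at an unadjusted p under 0.05 by limma did not hold under all of them. It was 2 with no filter beyond a value above 0, 1 at a minimum of 0.1 FPKM and 1 after quantile normalization. It was also above 0 when either mutant library was left out, and 0 under the other alternatives. The count over all genes, 1095, did not: it was 4 with no filter beyond a value above 0 and 4 at a minimum of 0.1 FPKM (3 higher and 1 lower each), 726 after quantile normalization, and 148 to 1164 when 1 library was left out, with the lone library of a strain assumed to vary like the others. With the replicate block it was 1803. Replicate numbers are shared by the labels but not said to mark a batch. Across genes the deviations of replicates 2 and 1 in mutant and control had Pearson's r of 0.176, which rests on 2 pairs. Of the values of single genes and sums, 793 were unchanged, 8 lost a call, 1 gained one and 71 moved. For genes, unchanged meant the same direction and side of the threshold, and moved a change of sign with no call in either setting. For sums, unchanged meant a ratio that shifted by less than its spread between libraries, and moved a larger shift. The nuclear median ran from -0.23 to 0.01 and the mitochondrial one from -1.64 to 0.87. The causes were not tested.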
